A study of Mus musculus with 8 samples.

Results

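The 10 genes described here act on the sending and tuning side of NOTCH signaling: the ligand genes *Dll1*, *Dll3*, *Dll4*, *Jag1* and *Jag2*, the non-canonical ligand gene *Dlk1*, the fringe genes *Lfng*, *Mfng* and *Rfng*, and *Pofut1*. They are 10 of the 48526 genes in the count table, found by mouse symbol after the Ensembl identifiers were matched to the GRCm38 annotation. The libraries came from the heart field at stage E8.5f, a region of cardiac precursors sampled after the heart was removed, with each side kept apart. Both pieces of 4 embryos (L29-3, L43-5, L46-8 and L49-3) gave 8 polyA RNA libraries. All 4 embryos were wild-type males of the C57bl6/J strain, so that the 2 groups, left side and right side, share genotype, sex, strain and stage. The comparison asks which genes differ between the sides of a single embryo, and no mutant or treated embryo is among these libraries.

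In NOTCH signaling, a transmembrane ligand on a cell binds a receptor on its neighbour, and the receptor is then cut so that its intracellular domain enters the nucleus and joins the DNA-binding protein RBPJ. The receptor carries O-fucose sugars added by POFUT1, and the fringe enzymes extend these sugars with N-acetylglucosamine, which alters how strongly DLL and JAG ligands activate the receptor. In the early embryo, oscillating *Lfng* and *Dll1* take part in somite formation, *Dll4* marks arterial endothelium and endocardium, and *Jag1* acts in the heart, its outflow tract and the vessels.

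The total count was 1147446 to 3520753 per library, with a median of 1916167, after the authors had excluded duplicate reads. Values below are normalized counts, meaning counts divided by a size factor of each library, unless another scale is named. A gene was tested when its normalized count was at least 20 in at least 4 libraries, which held for 9744 genes and for 6 of the 10 members. Markers of the second heart field, the dissected precursor population, were present, with 8 of 8 tested and a summed level of 388 to 557 CPM, the count scaled to the library total. Markers of other tissues were present as well. The summed level was 300 to 555 CPM for endothelium, 190 to 525 CPM for neural tube, 455 to 550 CPM for foregut endoderm and 183 to 331 CPM for paraxial mesoderm. It was lower for surface ectoderm, at 19.6 to 54.4 CPM, and for cranial neural crest, at 7.73 to 31.6 CPM. The cardiomyocyte list was present although the heart had been removed, and it varied most, from 447 to 3609 CPM. It was above the second heart field list in every library but the left one of L49-3. *Mesp2* and *Msgn1*, markers of presomitic mesoderm, had a count of 0 in all 8 libraries. Of the same paraxial mesoderm list, *Tbx6* had 9 counts over these libraries and *Ripply2* had 2.

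A RefSeq promoter was matched for 9 of the 10 genes. The 250 bases before the RefSeq start of *Jag1* and *Lfng* are shown, since *Jag1* passed the left and right threshold described below and *Lfng* varied most between embryos among the members tested. Capitals mark 4 short motifs searched on both strands: the RBPJ core TGGGAA, the class C site CACGCG and the N-box CACGAG, which HES and HEY repressors can bind, and the E-box CACGTG. The *Jag1* window is chr2:137116521-137116770 on the minus strand of GRCm38.p6, and the *Lfng* window is chr5:140607091-140607340 on the plus strand. The RefSeq start differs from the gene bounds of GENCODE given below, so that 124 bases of the *Jag1* window and 21 bases of the *Lfng* window lie inside the GENCODE gene. Distances of motifs are counted from the RefSeq start.
Jag1: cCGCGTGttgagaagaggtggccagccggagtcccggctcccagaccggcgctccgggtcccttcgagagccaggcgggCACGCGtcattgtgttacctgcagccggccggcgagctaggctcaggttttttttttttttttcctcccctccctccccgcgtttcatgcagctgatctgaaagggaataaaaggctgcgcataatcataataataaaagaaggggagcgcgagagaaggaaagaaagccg
Lfng: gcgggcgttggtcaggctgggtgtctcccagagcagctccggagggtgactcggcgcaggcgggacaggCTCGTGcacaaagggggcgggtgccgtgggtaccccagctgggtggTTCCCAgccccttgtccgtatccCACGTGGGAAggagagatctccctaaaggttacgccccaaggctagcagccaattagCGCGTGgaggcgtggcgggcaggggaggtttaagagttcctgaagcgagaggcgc

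The RBPJ core was found in 21.6% of all 32851 promoter windows of this length, and among the members in *Lfng* alone, where it occurred at 108 bases and, on the other strand, at 135 bases before the start. The match at 108 bases overlaps the E-box that begins at 112 bases before the start. The N-box was found in 5.37% of all windows and the E-box in 6.02%, and *Lfng* was again the single member with either. The class C site was found in 7.62% of all windows. Of the 9 members with a promoter, 5 had it, *Dll1*, *Dll4*, *Jag1*, *Lfng* and *Rfng*. In *Jag1* it occurred 2 times, at 171 bases and, on the other strand, at 249 bases before the start. *Dll1* has a further window without the site. The member windows with the site held 56% to 75.6% G and C bases, and those without it 52% to 87.2%. The median of all windows was 52.4%, and windows of like content were not compared. These matches describe letters in a window, and binding was not measured here.

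*Jag1* (ENSMUSG00000027276, chr2:137081456-137116644, minus strand) encodes a JAGGED ligand and had the highest level per kilobase of the canonical ligands. Its normalized count in the left and right heart field was 298 versus 241 in L29-3, 221 versus 244 in L43-5, 295 versus 206 in L46-8, and 288 versus 168 in L49-3. The left side was higher in 3 of 4 embryos and lower in L43-5, and the ranges of the sides overlapped. The mean was 275 ± 36.6 left and 215 ± 35.8 right (SD, n = 4 embryos). The log2 fold change of left over right was 0.32 (95% interval 0.05 to 0.59, SE 0.12), a fold of 1.25. With the embryo as a block, edgeR's quasi-likelihood test gave unadjusted p = 0.0246 and a Benjamini-Hochberg adjusted p = 0.987. *Jag1* therefore passed the threshold of the study, a fold of 1.2 or more at an unadjusted p of 0.05 or less, and did not pass correction for multiple testing. It was the only one of the 6 tested members past that threshold, which 3.05% of all tested genes passed, 1.63% with the left side higher. Among the 6 members, 0 had an adjusted p under 0.05, against 0.0103% of tested genes, and 425 of all tested genes had an unadjusted p of at most 0.05. With DESeq2 and limma-voom the count of members with an adjusted p under 0.05 was also 0. The study had already picked *Jag1* from these libraries, so this test adds no independent support.

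The *Jag1* difference depended on single embryos. Without L49-3 the log2 fold change was 0.21 (unadjusted p = 0.13 by edgeR), and without L46-8 it was 0.25 (unadjusted p = 0.0991 by edgeR). Without L43-5, the embryo in which the right side was higher, it was 0.51 (unadjusted p = 0.000737 and adjusted p = 0.974 by edgeR). The endothelium marker list moved in the same direction on average, but not in L43-5. Its summed level was higher on the left side of 4 of 4 embryos. It ranged from 411 to 555 CPM on the left and from 300 to 518 CPM on the right. In L43-5 it was 502 CPM left and 478 CPM right, whereas *Jag1* was lower on the left there. Of the 10 genes of the list, 8 were tested and 6 of these had a positive log2 fold change. Of them 0 passed the threshold, and 0 of the 10 were at a count of 0 throughout. By gene, the left side was higher in 4 embryos for *Kdr* and in 3 for *Tek*, *Esam*, *Cldn5*, *Erg* and *Flt1*. It was higher in 2 for *Tie1* and in 1 for *Pecam1*, *Cdh5* and *Emcn*. The part of endothelial cells in the *Jag1* values was not tested. In bulk tissue, fewer cells of a type and less RNA per cell cannot be told apart.

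**Figure D1:**
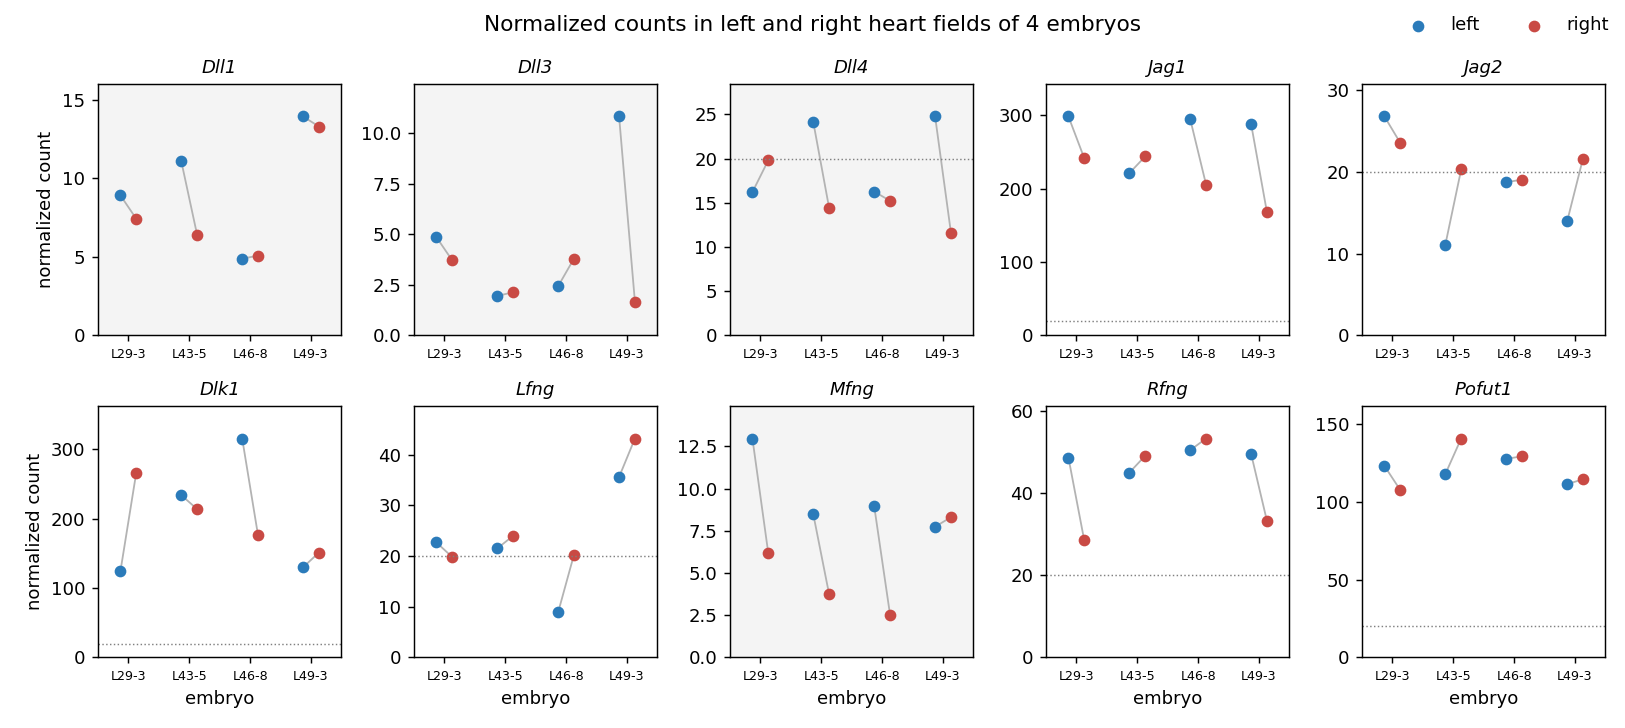
Normalized count (vertical axis, starting at 0) of each of the 10 genes for 4 embryos, blue for the left heart field and red for the right, with a grey line joining the sides of an embryo. The dotted line, where it lies within the axis, is at 20, and shaded panels are the 4 genes that were not tested; for *Jag1* the left side lay above the right in 3 of 4 embryos.

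*Jag2* (ENSMUSG00000002799, chr12:112907819-112929776, minus strand) encodes the other JAGGED ligand and had a far lower level per kilobase. Its left and right normalized counts were 26.8 versus 23.5 in L29-3, 11.1 versus 20.3 in L43-5, 18.7 versus 19.0 in L46-8, and 13.9 versus 21.6 in L49-3. The right side was higher in 3 of 4 embryos, by very little in L46-8, and the right values lay within the range of the left values. The mean was 17.6 ± 6.85 left and 21.1 ± 1.92 right (SD, n = 4). Left over right, its log2 fold change was -0.31 (95% interval -0.92 to 0.30), with adjusted p = 0.987 by edgeR's quasi-likelihood test. The interval includes 0.

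*Dll4* (ENSMUSG00000027314, chr2:119325784-119335962, plus strand), the DELTA ligand of arterial endothelium, reached a normalized count of 20 in 2 libraries only and was not tested. Its raw count on the left and right was 20 versus 16 in L29-3, 37 versus 27 in L43-5, 20 versus 12 in L46-8, and 16 versus 7 in L49-3. After normalization the left side was higher in 3 of 4 embryos and lower in L29-3, and the sides overlapped, at 20.3 ± 4.74 against 15.3 ± 3.39 (SD, n = 4). In an edgeR fit without a filter on low counts, over 23873 genes with at least 1 count, its log2 fold change was 0.41 (95% interval -0.18 to 1.0). A gene's own spread between embryos hardly enters the intervals of that fit. Of the exon bases of *Dll4*, 214 are shared with *Gm14207* on the opposite strand. The use of the strand in counting is not given in the sources used here, so reads of the pair cannot be told apart.

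*Dll1* (ENSMUSG00000014773, chr17:15367354-15376872, minus strand), a DELTA ligand of somites and neural progenitors, had raw counts from 4 to 17. Its left and right normalized counts were 8.92 versus 7.43 in L29-3, 11.1 versus 6.40 in L43-5, 4.88 versus 5.08 in L46-8, and 13.9 versus 13.3 in L49-3. On both sides L49-3 was highest and L46-8 lowest, and the ranges of the sides overlapped. The log2 fold change in the fit without a filter was 0.35 (95% interval -0.49 to 1.19). *Dll1* shares 867 exon bases with *A930024N18Rik* on the opposite strand, with the same limit.

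*Dll3* (ENSMUSG00000003436, chr7:28293553-28302238, minus strand), which encodes a divergent ligand that acts within the signal-sending cell, was near the limit of detection, with raw counts of 1 to 7 and 30 counts in all. Only L49-3 showed a wide gap, where the left library had 7 counts and the right library 1, a ratio of 6.48 with a 95% counting interval of 0.833 to 292. In the other embryos the sides had 6 and 3, 3 and 4, and 3 and 3 counts. No difference was detectable at this depth.

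**Figure D2:**
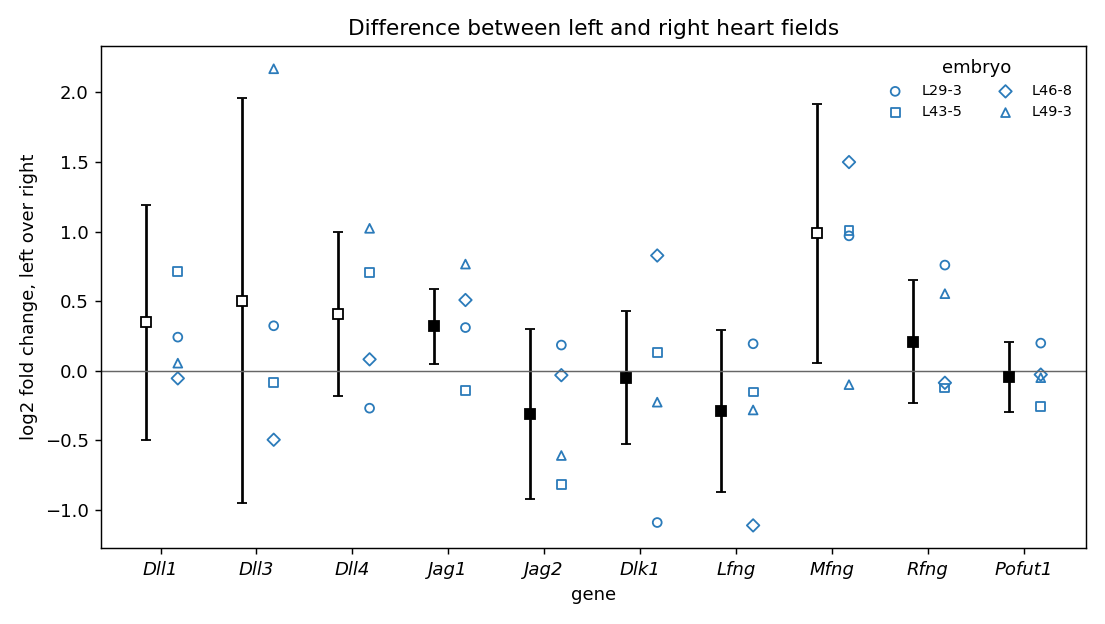
Log2 fold change of left over right for each gene, from the edgeR fit with the embryo as a block (squares, with 95% intervals), beside the ratio in each of the 4 embryos (blue symbols). Filled squares are the 6 tested genes. Open squares are the 4 genes from the fit without a filter, in which a gene's own spread between embryos hardly enters. The interval of *Jag1* runs from 0.05 to 0.59, and those of the other tested genes include 0.

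*Dlk1* (ENSMUSG00000040856, chr12:109452823-109463336, plus strand), an imprinted gene for a DELTA-like protein that lacks the DSL domain by which canonical ligands bind the receptor, varied widely between libraries. Its left and right normalized counts were 124 versus 266 in L29-3, 234 versus 214 in L43-5, 316 versus 176 in L46-8, and 130 versus 151 in L49-3. The right side was more than the left in L29-3 and L49-3, and the left more than the right in L43-5 and L46-8. The log2 ratio of left over right ran from -1.09 in L29-3 to 0.83 in L46-8, so the sides of single embryos differed widely and in opposite directions. The means were nearly equal, at 201 ± 91.7 left and 202 ± 50 right (SD, n = 4). The log2 fold change was -0.05 (95% interval -0.53 to 0.43), with adjusted p = 0.996 by edgeR's quasi-likelihood test. Its direction turned when L29-3 was left out, to a log2 fold change of 0.29, and without L46-8 it was -0.36.

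Among the fringes, *Rfng* (ENSMUSG00000025158, chr11:120780746-120784207, minus strand) had the highest level per kilobase. Its left and right normalized counts were 48.6 versus 28.5 in L29-3, 45.0 versus 49.1 in L43-5, 50.5 versus 53.3 in L46-8, and 49.5 versus 33.2 in L49-3. The left values were close together, at 48.4 ± 2.40, whereas the right values were spread, at 41.0 ± 12 (SD, n = 4). The right side was low in L29-3 and L49-3 and slightly above the left in the other embryos. The log2 fold change was 0.21 (95% interval -0.23 to 0.65), with adjusted p = 0.987 by edgeR's quasi-likelihood test.

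*Lfng* (ENSMUSG00000029570, chr5:140607320-140615545, plus strand), the fringe that oscillates in presomitic mesoderm, had left and right normalized counts of 22.7 versus 19.8 in L29-3, 21.5 versus 24 in L43-5, 8.95 versus 20.3 in L46-8, and 35.6 versus 43.2 in L49-3. Both sides of L49-3 were above all other libraries, and the left side of L46-8 was below them. The right side was higher in 3 of 4 embryos, with a log2 fold change of -0.29 (95% interval -0.87 to 0.29) and adjusted p = 0.987 by edgeR's quasi-likelihood test.

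*Mfng* (ENSMUSG00000018169, chr15:78755882-78773475, minus strand) was the fringe with the fewest counts and was not tested. Its raw count on the left and right was 16 versus 5 in L29-3, 13 versus 7 in L43-5, 11 versus 2 in L46-8, and 5 versus 5 in L49-3. The left side was higher in 3 of 4 embryos after normalization, and L49-3 was slightly higher on the right. The mean normalized count was 9.54 ± 2.34 left and 5.19 ± 2.57 right (SD, n = 4), and the sides overlapped. In the fit without a filter the log2 fold change was 0.99 (95% interval 0.06 to 1.92), with unadjusted p = 0.0374 and adjusted p = 0.997 by edgeR's quasi-likelihood test. In that fit 2.88% of 23873 genes passed the threshold on fold and unadjusted p, and *Mfng* and *Jag1* were the members that did. At 2 to 16 counts a library, the estimate is loose. In L46-8 the ratio of left to right was 3.51 with a 95% counting interval of 0.765 to 32.6. As with *Jag1*, the summed endothelium list was higher on the left side of 4 of 4 embryos, L49-3 among them, though not each gene was. The part of endothelial cells in the *Mfng* values was not tested.

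*Pofut1* (ENSMUSG00000046020, chr2:153241533-153270247, plus strand), the O-fucosyltransferase on which fringe activity depends, was the steadiest member. Its left and right normalized counts were 123 versus 108 in L29-3, 118 versus 141 in L43-5, 128 versus 129 in L46-8, and 111 versus 115 in L49-3. The SD of its log2 CPM over the 8 libraries was 0.13, against 0.28 for *Jag1*, 0.48 for *Dlk1* and 0.61 for *Lfng*. The mean was 120 ± 7.01 left and 123 ± 14.9 right (SD, n = 4). Its log2 fold change was -0.05 (95% interval -0.30 to 0.20), with adjusted p = 0.99 by edgeR's quasi-likelihood test.

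Across the 6 tested members, 2 log2 fold changes were positive and 4 negative. Their median was -0.05, and it was -0.004 over all 9744 tested genes. In 0 of the 6 did the left and right values fail to overlap, against 2.51% of tested genes, and in 0 of the 6 did all 4 embryos share a direction, against 12.4% of tested genes.

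Differences between embryos were then examined by testing the embryo in the same libraries with the side as a covariate. Of the 6 tested members, 0 had an adjusted p under 0.05 by edgeR's quasi-likelihood test, and 0.174% of all tested genes, 17 in number, did. The count of members was also 0 with DESeq2 and limma-voom. *Lfng* had unadjusted p = 0.0216 and adjusted p = 0.368 by that test, and was the only tested member with an unadjusted p of at most 0.05, which 974 genes reached. The mean *Lfng* normalized count over both sides was 39.4 in L49-3, 22.8 in L43-5, 21.3 in L29-3 and 14.6 in L46-8. The highest embryo was 2.69 times the lowest, and the median of this ratio over all tested genes was 1.25. Without L49-3, the unadjusted p of *Lfng* was 0.226 by edgeR.

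The neural tube marker list was also highest in L49-3, at 434 CPM on the left and 525 CPM on the right, against 190 to 358 CPM in the other libraries. Of its 10 genes, 7 were tested and 0 were at a count of 0 throughout. L49-3 also had the lowest total counts, 1237593 and 1147446, and its left library the lowest cardiomyocyte level, 447 CPM, whereas its right library, at 1463 CPM, was above the right library of L46-8 at 1245 CPM. The part of these in the *Lfng* values was not tested. *Lfng* was the only tested member whose log2 CPM had an SD of at least 0.5 over the 8 libraries. The genes closest to it in pattern, by the root mean square difference of centred log2 CPM, were *Arhgef28* at 0.21, *Tmco6* at 0.22 and *Ptn* at 0.23, and the median over all tested genes was 0.60.

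The other tested members had smaller ratios between embryos. *Dlk1* averaged 246 in L46-8 and 141 in L49-3, a ratio of 1.75, with adjusted p = 0.629 by edgeR's quasi-likelihood test. *Jag2* had a ratio of 1.60, *Rfng* of 1.35, *Jag1* of 1.18 and *Pofut1* of 1.14, with adjusted p between 0.765 and 0.873 by the same test. Among those not tested, *Dll1* had a ratio of 2.73, with 13.6 in L49-3 and 4.98 in L46-8, the same highest and lowest embryo as *Lfng*. This ratio rests on 4 to 17 raw counts a library. Between embryos, the fit without a filter gave *Dll1* unadjusted p = 0.199 and adjusted p = 0.996 by edgeR's quasi-likelihood test. *Dll3* had a ratio of 3.06, *Mfng* of 1.67 and *Dll4* of 1.22.

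To compare levels between genes, counts were scaled to CPM per kilobase of exons. On this scale *Jag1* was highest, at 22.2 ± 4.21 (SD over 8 libraries), followed by *Dlk1* at 18.8 ± 6.34, *Rfng* at 9.49 ± 1.90 and *Pofut1* at 6.48 ± 0.579. *Lfng* had 5.17 ± 2.22, *Dll4* 2.44 ± 0.638, *Jag2* 1.47 ± 0.383, *Mfng* 1.37 ± 0.607, *Dll1* 1.11 ± 0.446 and *Dll3* 0.728 ± 0.556. *Jag1* lay above 73.6% of tested genes in level per kilobase, *Rfng* above 45.5% and *Dll4* above 6.78%.

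Between neighbours in this order, the smallest two-sided p that an exact sign-flip permutation test over the 4 embryos can give is 0.13, rounded. *Dlk1* exceeded *Rfng*, and *Rfng* exceeded *Pofut1*, in all 8 libraries, each with an exact permutation p of the smallest size the test allows, 0.188 after adjustment over the 9 pairs. *Lfng* exceeded *Dll4* and *Dll4* exceeded *Jag2* in 7 of 8 libraries, with the same adjusted value. *Jag1* exceeded *Dlk1* in 5 of 8 libraries, although its mean log2 level was higher in all 4 embryos. *Pofut1* exceeded *Lfng* in 6 libraries, *Jag2* exceeded *Mfng* in 4 and *Mfng* exceeded *Dll1* in 4, and the order within these pairs did not exceed the spread between libraries. *Dll1* exceeded *Dll3* in 6 libraries. With the longest transcript as the length in place of all exons, *Rfng* and *Pofut1* changed places, and so did *Jag2* and *Mfng*.

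**Figure D3:**
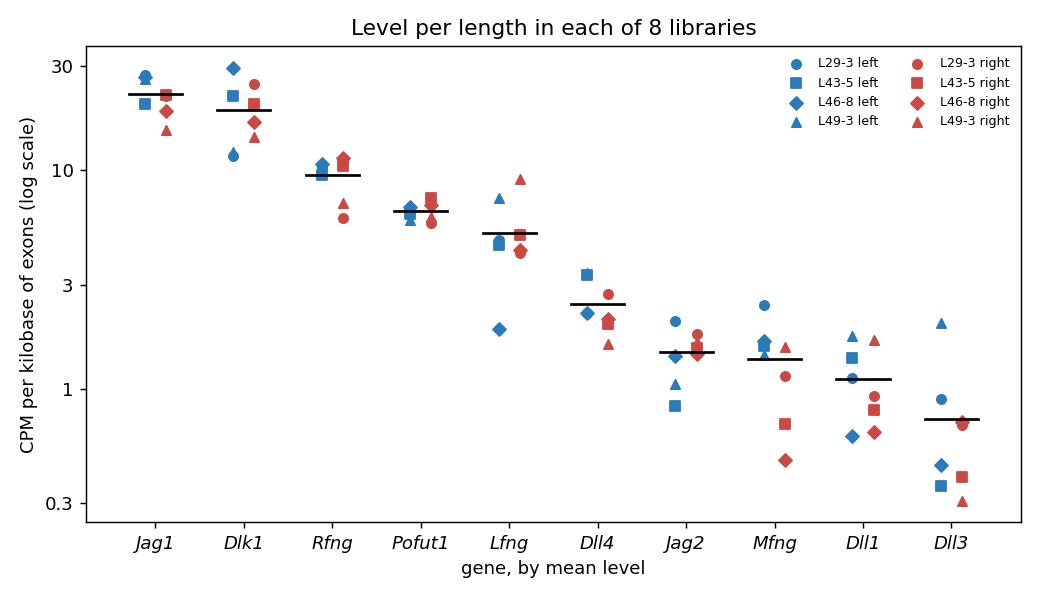
Level in CPM per kilobase of exons (log axis) in each of 8 libraries, with genes ordered by their mean (black bar), color for the side and symbol for the embryo. *Jag1* averaged 22.2 and *Dll3* 0.728 on this scale, and the points of *Jag2*, *Mfng* and *Dll1* overlap.

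As a share of the summed level per kilobase of the 5 canonical ligands, *Jag1* took 79.2% ± 3.48 (SD over 8 libraries), with a range of 74.5% to 85%. *Dll4* took 8.77% ± 2.0, *Jag2* 5.40% ± 1.68, *Dll1* 4.11% ± 2.0 and *Dll3* 2.48% ± 1.51. The *Jag1* share was 79.9% ± 4.05 left and 78.6% ± 3.27 right (SD, n = 4), a difference smaller than the spread between embryos. The *Jag2* share was lower on the left side of 4 of 4 embryos. It was 6.09% versus 6.37% on the left and right in L29-3, 3.24% versus 5.73% in L43-5, 4.52% versus 6.14% in L46-8, and 3.08% versus 8.02% in L49-3. The values of the sides overlapped through the left library of L29-3, and the gap in that embryo was small. *Jag1* made up most of the sum, so the *Jag2* share also moves with *Jag1*. The *Jag2* count itself was lower on the left side of 3 of 4 embryos, by very little in L46-8.

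Of the summed fringe level, *Rfng* took 59.6% ± 11, *Lfng* 31.8% ± 11.1 and *Mfng* 8.63% ± 3.64 (SD over 8 libraries). The *Lfng* share was lower on the left side of 4 of 4 embryos, at 27.3% versus 36.7% on the left and right in L29-3, 29% versus 31.3% in L43-5, 13.2% versus 26.7% in L46-8, and 38.6% versus 51.4% in L49-3. The sides overlapped, and in the right library of L49-3 *Lfng* exceeded *Rfng*. A share moves with every gene in its sum, and the *Lfng* count itself was lower on the left side of 3 of 4 embryos. These shares were picked out after their values were seen.

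**Figure D4:**
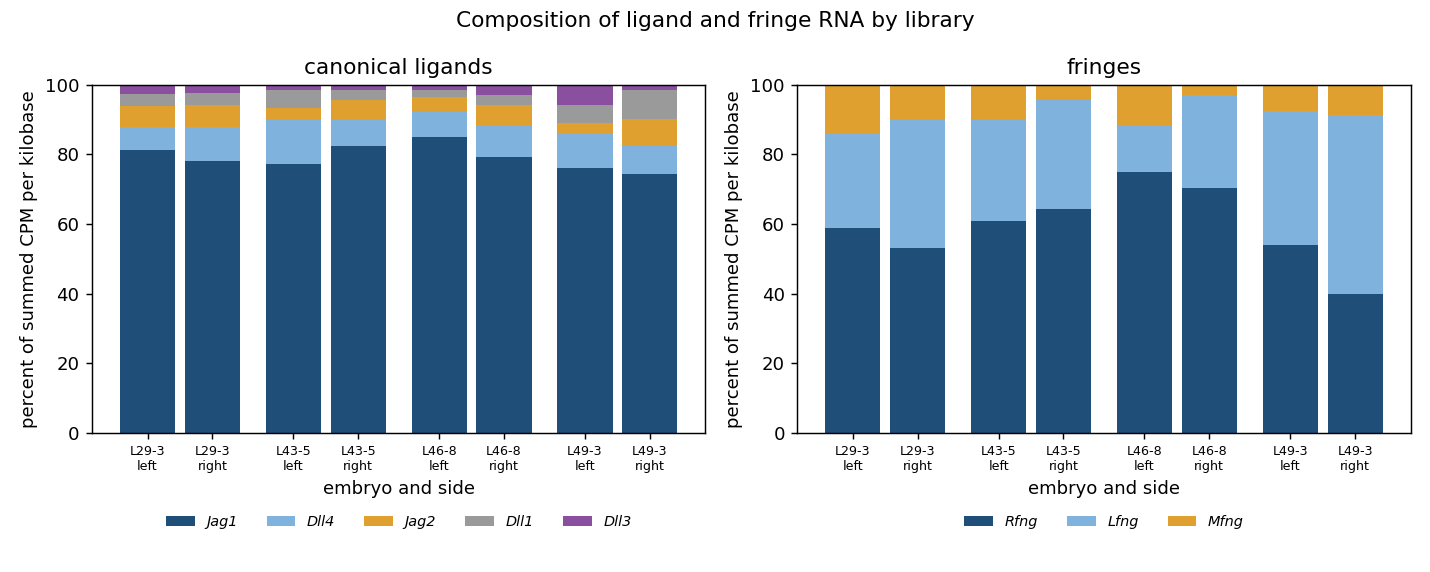
Percent of the summed CPM per kilobase taken by each canonical ligand (left panel) and each fringe (right panel), one stacked bar for each of the 8 libraries. *Jag1* took 74.5% to 85% of the ligand level, and *Rfng* took more than *Lfng* in every library but the right one of L49-3.

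Other genes of the pathway were taken from a list of 51 genes in 8 groups, of which 36 were tested. Of these, 1 passed the threshold with the left side higher and 2 with the left side lower, against 1.63% and 1.42% of all tested genes, and 0 had an adjusted p under 0.05 by edgeR. An unadjusted p of at most 0.05 was found for 4, these 3 and *Ncstn*, whose fold was just under 1.2. In log2 fold change 19 were positive and 17 negative, with a median of 0.005. The study had named these 3 genes from the same libraries, which makes their count no independent evidence.

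The receptors were all tested. *Notch3*, the highest receptor per kilobase at 19.7 CPM per kilobase, was higher on the left side of 4 of 4 embryos, at 336 ± 59.1 against 269 ± 8.98 (SD, n = 4). Its log2 fold change was 0.28, with unadjusted p = 0.0157 and adjusted p = 0.987 by edgeR's quasi-likelihood test. The summed endothelium list was likewise higher on the left side of 4 of 4 embryos, though not each of its genes was. The part of endothelial cells in the *Notch3* values was not tested. By in situ hybridization, the study also found more *Notch3* signal on the left within the outlined heart field, strongest at an earlier stage. It detected *Notch1* in the endothelium. *Notch1*, *Notch2* and *Notch4* did not pass, with log2 fold changes of 0.20, -0.01 and -0.56.

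Ligands are taken up by endocytosis in the sending cell, a step driven by the ubiquitin ligase MIB1 and by epsins. Of this group 5 of 8 were tested and 0 passed. *Mib1* had a log2 fold change of 0.05, and *Epn1*, the highest of the group at 60.2 CPM per kilobase, one of -0.13. Of the other O-glycosylation enzymes of NOTCH, 4 of 5 were tested and 0 passed, with *Gxylt1* the highest at 16 CPM per kilobase and a log2 fold change of 0.002. Of the cleavage group 8 of 10 were tested and 0 passed, and *Adam10*, the protease that sheds the receptor ectodomain, was the highest at 27.8 CPM per kilobase with a log2 fold change of 0.10.

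All 5 nuclear effectors were tested and 0 passed, with *Maml1*, a coactivator, the highest at 15.1 CPM per kilobase and a log2 fold change of 0.07. Of the 9 modifiers 7 were tested and 1 passed. This was *Dtx4*, a deltex ubiquitin ligase, with 45.4 ± 14.1 left and 84.6 ± 38.0 right (SD, n = 4). It was higher on the left side of 1 of 4 embryos. Its log2 fold change was -0.83, with unadjusted p = 0.00304 and adjusted p = 0.987 by edgeR's quasi-likelihood test. The summed neural tube list was lower on the left side of 3 of 4 embryos. Of its 7 tested genes, 6 had a negative log2 fold change, and 2 passed the threshold, *Sox1* at -0.98 (unadjusted p = 0.0167) and *Pax6* at -0.83 (unadjusted p = 0.0142) by edgeR. In published single-cell data of the same stage, the study found *Dtx4* in ectodermal cells only. The part of neural tube cells in the *Dtx4* values was not tested here. *Dtx3* was the highest modifier at 21.1 CPM per kilobase, with a log2 fold change of 0.05.

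Of the 7 target genes 3 were tested and 1 passed. *Hes1*, a repressor induced by NOTCH, was lower on the left side of 4 of 4 embryos, at 103 ± 16.7 against 124 ± 19.6 (SD, n = 4). Its log2 fold change was -0.28, with unadjusted p = 0.0333 and adjusted p = 0.987 by edgeR's quasi-likelihood test. *Hes1* was also the highest target at 29.5 CPM per kilobase. As described with *Dtx4*, the summed neural tube list was lower on the left side of 3 of 4 embryos, all but L29-3. The part of neural tube cells in the *Hes1* values was not tested. The other non-canonical ligands *Dlk2*, *Dner* and *Cntn1* were not tested and did not exceed 4 counts in a library, with *Dner* the highest at 0.15 CPM per kilobase.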

How the data were processed

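RNA of the left and right heart fields of 4 embryos was measured by sequencing, and groups and embryos were taken from the sample titles. The deposited values are raw counts of reads per gene. The authors had mapped the read pairs with HISAT2 (GRCm38), taken out duplicates and run featureCounts. The versions of these tools and the strand setting are not given in the sources used here. Duplicates were excluded because the authors found many of them. The counts that remain are low, and members with few counts have a wide counting error.

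Symbols, positions and exon lengths were taken from GENCODE vM21, with 48144 of 48526 identifiers matched. Transcripts of members were compared with all others by blastn 2.17.0 (at least 90% identity over at least 100 bases), which found only the opposite-strand partners of *Dll1* and *Dll4*. Promoter sequences are from RefSeq, build GRCm38.p6.

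Sides and embryos were compared on all 9744 genes that passed the filter by the quasi-likelihood test of edgeR 4.0.16 (R 4.3.3), with TMM normalization and Benjamini-Hochberg adjustment. Normalized counts use DESeq2 1.42.0 size factors, CPM uses TMM-scaled totals, and ratios of single embryos add 0.5 CPM to each side. Log2 CPM uses a prior count of 2. The methods were tested on simulated data. Intervals of counts and of ratios of counts cover counting error only, at 95%. Both sides of an embryo come from 1 animal, which pairs the libraries. The correlation of their deviations from the side means was 0.167 (L29-3), 0.187 (L43-5), -0.0221 (L46-8) and 0.431 (L49-3), and -0.388 to 0.253 between embryos. No pair of libraries differed by as little as sampling noise, since chi-square per degree of freedom was at least 1.93.

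The rule for naming genes takes all 10 members, the genes of the pathway list past the fold and p threshold, the highest of each pathway group, and the 3 genes most like each tested member with an SD of log2 CPM of at least 0.5. Members, lists and rules were chosen with earlier results of these data known. Alternatives tried were limma-voom (limma 3.58.1), DESeq2 with its own test, DESeq2 size factors in edgeR, scaling by library size only, a minimum of 10 counts in every library, no filter, no block, the longest transcript as length, and each embryo left out.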

Additional observations from a re-analysis of the deposited data

Results flagged for a closer look

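The normalized count of *Jag1* in the left heart field of L43-5 was 221, below the other left libraries, which lay between 288 and 298. The gap to the nearest library took 0.866 of the range of the group, above the 95% critical value of Dixon's test for 4 samples. Of 30 such groups tested for the members this was the only one past the critical value, and chance alone passes about 1 in 20. The same left value enters the comparison of sides in L43-5, the only embryo in which *Jag1* was lower on the left.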

How the results depend on the processing

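The left and right call of *Jag1* depended on the tool and on single embryos. Its log2 fold change stayed positive in all 11 alternatives, from 0.21 to 0.51, with adjusted p from 0.277 to 0.99996, and it lost the threshold with limma-voom (0.27, unadjusted p = 0.0502), leaving 0 members past it, and without L46-8 or L49-3. With an embryo left out, 0 to 1 members passed, and 268 to 379 genes of all. All genes past the threshold numbered 687 without a filter and 56 with DESeq2. Genes with an adjusted p under 0.05 numbered 34 without a filter, 0 with at least 10 counts in every library, 2 with DESeq2, and 1 to 5 with an embryo left out. Without the replicate block the paired design was ignored, and 0 genes had an adjusted p under 0.05, 233 passed the threshold, and *Jag1* kept a log2 fold change of 0.33. Between embryos, 641 genes were called without a filter, 9 with at least 10 counts in every library, 46 with DESeq2, 4 with limma-voom and 0 to 236 with an embryo left out. Without a filter 1 member, *Dlk1*, was among them (adjusted p = 6.08e-05 by edgeR, against 0.629 with the filter). Its log2 ratio of left over right ran from -1.09 in L29-3 to 0.83 in L46-8. This spread hardly enters the fit without a filter. The causes of these differences between settings were not tested. The log2 fold change of *Dlk1* turned to 0.00524 with limma-voom and 0.00327 without the block, and ran from -0.36 to 0.29 with an embryo left out, and that of *Pofut1* from -0.12 to 0.047 (positive without L43-5). The *Jag1* share of the ligand level stayed between 77.5% and 80.5%. *Jag2* gave no value with at least 10 counts in every library. Depth limits *Dll1*, *Dll3*, *Dll4* and *Mfng*, with 30 to 155 counts over the 8 libraries, and a count of 0 would allow up to 3. P-values of left against right set a difference against its spread between embryos, moderated over all genes. Those between embryos set embryo differences against the spread within embryos after the side is removed. Without a filter, a gene's own spread hardly enters. All rest on 4 embryos of 1 stage.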
